A study of Mus musculus with 12 samples.

Results

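The 10 genes described here encode ligands and receptors of the vascular endothelial growth factor (VEGF) and angiopoietin systems. They were chosen by name: the VEGF ligands Vegfa, Vegfb and Vegfc, the angiopoietin Angpt2, the VEGF receptors Flt1, Kdr and Flt4, the neuropilin co-receptors Nrp1 and Nrp2, and the angiopoietin receptor Tek. All 10 were found among the 24421 genes of the count files, and all 10 passed the filter on low counts that left 13583 genes for testing. The RNA came from whole pancreatic islets of mice that had eaten a high-fat diet (6 weeks), and was sequenced in bulk. The 6 libraries named BKO came from Il22ra1βKO mice, in which the β cells lack the alpha 1 subunit of the interleukin-22 receptor, and the 6 libraries named Cre came from Ins2Cre mice, the controls, which carry a Cre recombinase under an insulin gene promoter. The labels give neither the age of the mice nor whether a library is 1 animal or a pool, so the tests reflect only the spread among the 12 libraries. The comparison asks how the transcripts of a ligand known from β cells and of receptors known from vessels differed between the genotypes.

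Islets are densely supplied with fenestrated capillaries, and β cells are known to make VEGF-A, which acts on endothelial cells through the tyrosine kinase receptor KDR (VEGFR2). FLT1 (VEGFR1) binds VEGF-A and VEGF-B and in part acts as a decoy, FLT4 (VEGFR3) binds VEGF-C and is best known from lymphatic vessels, and the neuropilins present VEGF to these receptors. ANGPT2 is a ligand of the endothelial receptor TEK (TIE2) that can antagonise ANGPT1 and loosen vessel walls.

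To show the starts of the main VEGF receptors, the angiopoietin receptor and the most abundant ligands side by side, the RefSeq sequences of 5 start regions are shown (build GRCm38.p6, 250 bases before the annotated start, 5′ to 3′ on the strand of the gene). Capitals mark matches, on either strand, to the ETS core AGGAAG, the hypoxia response core ACGTG or the GC box GGGCGG.
Flt1 promoter, chr5:147726012-147726261, minus strand: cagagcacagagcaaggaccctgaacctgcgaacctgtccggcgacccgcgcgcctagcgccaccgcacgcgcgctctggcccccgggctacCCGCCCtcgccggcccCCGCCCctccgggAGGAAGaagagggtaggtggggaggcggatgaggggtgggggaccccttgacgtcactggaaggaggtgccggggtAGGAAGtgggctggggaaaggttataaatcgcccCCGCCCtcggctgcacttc
Tek promoter, chr4:94739039-94739288, plus strand: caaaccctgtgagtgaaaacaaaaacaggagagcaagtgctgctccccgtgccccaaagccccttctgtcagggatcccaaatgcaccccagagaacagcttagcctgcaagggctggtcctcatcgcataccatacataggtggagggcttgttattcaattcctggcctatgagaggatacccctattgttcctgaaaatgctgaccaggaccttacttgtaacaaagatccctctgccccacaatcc
Kdr promoter, chr5:75978456-75978705, minus strand: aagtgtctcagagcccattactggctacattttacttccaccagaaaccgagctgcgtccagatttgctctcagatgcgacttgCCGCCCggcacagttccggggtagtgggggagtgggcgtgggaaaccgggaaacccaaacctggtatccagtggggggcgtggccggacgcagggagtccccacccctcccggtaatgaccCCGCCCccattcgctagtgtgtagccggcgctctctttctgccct
Vegfa promoter, chr17:46032378-46032627, minus strand: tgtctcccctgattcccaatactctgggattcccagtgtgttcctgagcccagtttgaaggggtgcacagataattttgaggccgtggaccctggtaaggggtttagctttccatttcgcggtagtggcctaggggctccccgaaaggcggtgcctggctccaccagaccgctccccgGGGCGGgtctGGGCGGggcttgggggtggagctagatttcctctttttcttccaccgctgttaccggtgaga
Vegfb promoter, chr19:6987652-6987901, minus strand: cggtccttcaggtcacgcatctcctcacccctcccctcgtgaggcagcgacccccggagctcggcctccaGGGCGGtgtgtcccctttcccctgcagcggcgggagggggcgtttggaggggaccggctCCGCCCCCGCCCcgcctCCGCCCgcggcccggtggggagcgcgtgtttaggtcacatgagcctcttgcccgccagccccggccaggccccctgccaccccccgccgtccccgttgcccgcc
The ETS core was found in 29.5% of all 32851 such windows, the hypoxia core in 16.6% and the GC box in 32.7%. Flt1 held 2 ETS matches, with first bases at -129 and -53 relative to the start, and 3 GC boxes. The windows of Kdr and Vegfa each held 2 GC boxes and that of Vegfb held 4, while that of Tek held none of the 3 motifs. The hypoxia core was in none of these 5 windows, which says only that these letters are not there. The table holds a second Vegfa start, and the window before it (chr17:46025164-46025413, sequence not shown) held 1 ACGTG match at -211 and 1 GC box. GC content was 51.2% in the Tek window, 61.6% in the Kdr window and 70.4% in the Flt1 window. The windows of Flt4, Nrp1 and Nrp2, not shown, had 68.4%, 64.4% and 72.4%, so Tek was the lowest of the receptors.

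Between 10356093 and 12397139 reads per library were assigned to genes, and 3 reads corresponded to between 0.242 and 0.290 reads per 1000000 gene reads. Levels below are CPM, reads per 1000000 gene reads after the library sizes were scaled by TMM (trimmed mean of M-values). The targeted gene, Il22ra1, had 1 to 3 reads in BKO and 1 to 5 reads in Cre libraries, too few in bulk islets to check the genotype labels. Over all genes, 0 of 13583 passed edgeR's quasi-likelihood test at a Benjamini-Hochberg adjusted p under 0.05 (0.0% in either direction), and 1815 had an unadjusted p under 0.05. DESeq2 called 214 of the 14237 genes to which it gave an adjusted p (1.5%). Cre-1 had 27.3% of its counted reads in the low alignment quality line, where the other libraries had between 16.7% and 22.2%. β-cell identity was plain in the RNA, with Ins2, Iapp and Ins1 the leading β-cell transcripts per kilobase.

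Vegfa was by far the most abundant of the 10 genes, and it barely differed between genotypes. Levels were compared between genes as CPM per kilobase of exon. Vegfa was at 136 ± 11.1 CPM per kilobase (SD, n = 12), Vegfb at 22.5 ± 2.38, Angpt2 at 12.9 ± 2.43 and Kdr at 11.4 ± 2.12. Tek (3.46 ± 0.984), Flt1 (2.83 ± 0.669), Flt4 (2.65 ± 0.442), Nrp2 (2.38 ± 0.539) and Nrp1 (2.02 ± 0.314) formed a lower group whose neighbours lay within each other's spread, although Tek was above Flt1 in 12 of 12 libraries. Angpt2 and Kdr also lay within each other's spread, with Angpt2 above Kdr in 11 of 12 libraries. Vegfc was last at 0.829 ± 0.246. The 2 steps from Vegfa to Vegfb and from Vegfb to Angpt2 were seen in each of the 12 libraries. Vegfa made up a median of 86.7% of the summed VEGF ligand level in BKO and 83.6% in Cre, and Kdr a median of 65.3% and 67.7% of the summed VEGF receptor level. Exon lengths are those of all annotated exons together, so a gene whose long isoforms are little used is understated on this scale.

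**Figure D1:**
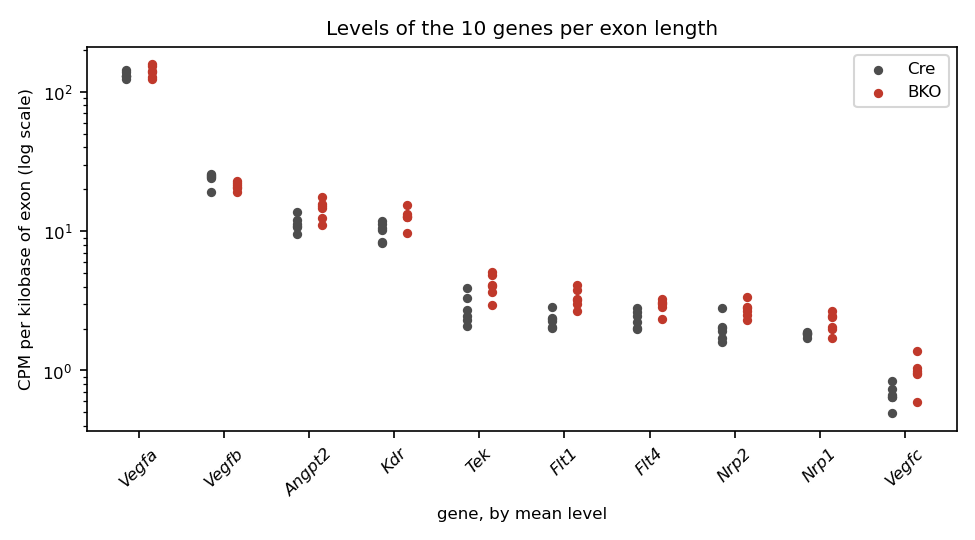
Level of each of the 10 genes as CPM per kilobase of exon (vertical axis, log scale) in the 6 Cre (grey) and 6 BKO (red) libraries, with genes ordered by mean. Vegfa, at a mean of 136, stands above every other gene in all libraries, and Vegfc, at 0.829, is lowest.

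Of the ligands, Vegfa showed no detectable difference, Vegfb had lower values in BKO, and Vegfc and Angpt2 had higher values; none passed the test. Vegfa, the main angiogenic ligand (ENSMUSG00000023951.17, chromosome 17, 46016993 to 46032369, minus strand, mm10), had a lowest, median and highest value of 528, 603 and 674 CPM among BKO libraries and of 534, 554 and 614 CPM among Cre libraries. The Cre range lay inside the BKO range, whose highest value was in BKO-1 and lowest in BKO-6. Its log2 fold change was 0.08 ± 0.063 (SE; 601 ± 57.7 against 568 ± 31.3 CPM, SD, n = 6 each; edgeR adjusted p = 0.649). The BKO libraries were the more spread, with a coefficient of variation of 9.60% against 5.51%.

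Vegfb, a ligand of FLT1 and NRP1 known from fatty acid handling (ENSMUSG00000024962.13, chromosome 19, 6982473 to 6987651, minus strand), was the only 1 of the 10 with a negative fold change. It was at 30.7, 33.8 and 36.9 CPM (lowest, median, highest) in BKO and at 30.5, 39.6 and 41.3 CPM in Cre. All 6 BKO libraries lay below the Cre mean, and 5 of 6 Cre libraries lay above the highest BKO library. The exception was Cre-1, at 30.5 CPM, the library with the largest share of low-quality alignments; the part of that in its Vegfb value was not tested. The log2 fold change was -0.18 ± 0.073 (SE; edgeR adjusted p = 0.297), and -0.25 without Cre-1 (edgeR adjusted p = 0.0808).

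Vegfc, the ligand of FLT4 that drives lymphatic growth (ENSMUSG00000031520.6, chromosome 8, 54077606 to 54187096, plus strand), rested on few reads, 14 to 38 per library. It was at 1.46, 2.40 and 3.36 CPM in BKO and at 1.20, 1.62 and 2.07 CPM in Cre. In 5 BKO libraries it exceeded the highest Cre library, and BKO-3 lay among the controls. Its log2 fold change of 0.55 ± 0.21 (SE) had the largest error of the 10 (edgeR adjusted p = 0.279).

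Angpt2, the vessel-destabilising angiopoietin (ENSMUSG00000031465.6, chromosome 8, 18690263 to 18741562, minus strand, within introns of Mcph1 on the other strand), was at 40.9, 55.0 and 65.0 CPM in BKO and at 35.4, 41.0 and 50.6 CPM in Cre. In 4 BKO libraries it was above every Cre library, while BKO-1 and BKO-2 lay inside the Cre range. The log2 fold change was 0.34 ± 0.10 (SE; 53.2 ± 8.65 against 41.9 ± 5.15 CPM, SD, n = 6 each; edgeR adjusted p = 0.192).

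**Figure D2:**
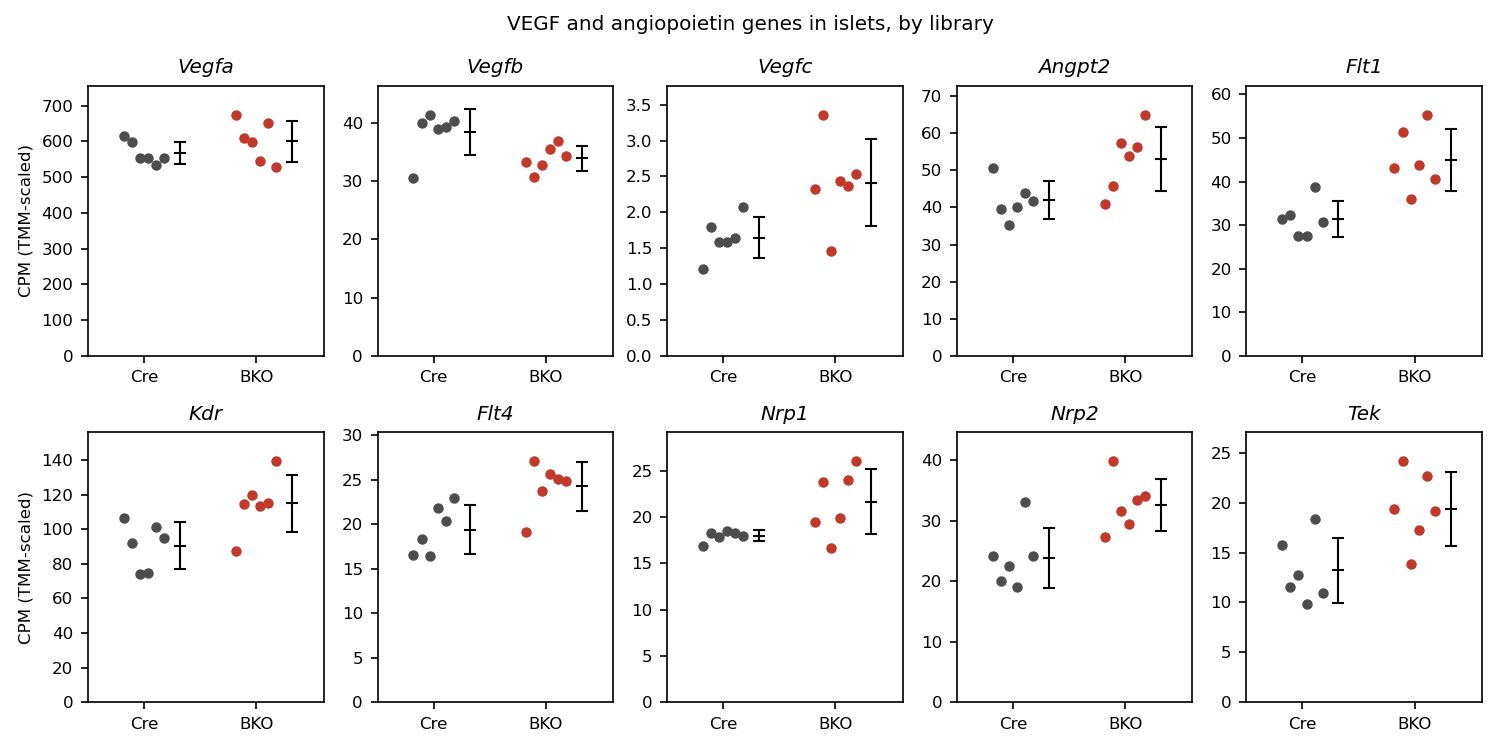
CPM (TMM-scaled, axes from 0) of the 10 genes in each of the 6 Cre (grey) and 6 BKO (red) libraries, with the group mean and SD in black. Each of the 6 receptors has its BKO mean above its Cre mean, Vegfa has largely overlapping groups, and Vegfb is lower in BKO except against Cre-1 at 30.5 CPM.

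The receptors all had higher mean values in BKO, by 1.20-fold to 1.47-fold, and none passed edgeR's test over all genes. Of the 10 genes, 8 were higher at an unadjusted p under 0.05, where 8.7% of all genes were, and 1 was lower, where 4.66% of all genes were. The median log2 fold change was 0.34 over the 10 genes and 0.0078 over all genes tested, and 9 of 10 were positive where 52.8% of all genes were. For none of the 10 genes were the groups free of overlap, where 0.508% of all genes had groups that did not overlap. The 10 genes and the lists below were chosen with earlier results of these data known. Their comparisons with all genes are therefore descriptions.

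Flt1 had the smallest p of the 10 genes and the 6th smallest of all genes. This VEGFR1 gene (ENSMUSG00000029648.13, chromosome 5, 147561604 to 147726011, minus strand) was at 36.0, 43.5 and 55.3 CPM in BKO and at 27.5, 31.1 and 38.7 CPM in Cre. In 5 of 6 BKO libraries it exceeded the highest Cre library, and only BKO-3 fell below Cre-5. Its log2 fold change was 0.52 ± 0.10 (SE; 45.04 ± 7.09 against 31.4 ± 4.11 CPM, SD, n = 6 each), with 6 of 6 BKO libraries above the Cre mean (edgeR adjusted p = 0.121). DESeq2 called it higher (adjusted p = 0.00552), and edgeR's adjusted p was 0.0256 without Cre-5, 0.0307 without BKO-4 and 0.0494 without BKO-3. Those 3 fits called 0.807%, 1.92% and 0.0366% of all genes. Over all alternatives its adjusted p ran from 0.00183, with the replicate number as a block and 2.68% of all genes called, to 0.347.

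Kdr, the VEGFR2 gene and the most abundant receptor (ENSMUSG00000062960.10, chromosome 5, 75932827 to 75978458, minus strand), was at 87.6, 115 and 139 CPM in BKO and at 74.0, 93.5 and 106 CPM in Cre. All BKO libraries except BKO-1 were above the highest Cre library, and BKO-1 lay inside the Cre range. The log2 fold change was 0.34 ± 0.11 (SE; 115 ± 16.5 against 90.5 ± 13.4 CPM, SD, n = 6 each; edgeR adjusted p = 0.206).

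Flt4, the VEGFR3 gene (ENSMUSG00000020357.3, chromosome 11, 49609263 to 49652739, plus strand), was at 19.1, 25.0 and 27.0 CPM in BKO and at 16.4, 19.3 and 22.9 CPM in Cre. Again 5 BKO libraries exceeded every Cre library and BKO-1 did not. The log2 fold change was 0.32 ± 0.10 (SE; edgeR adjusted p = 0.192). Of the 6 lymphatic markers, 4 were tested and all 4 were positive, with a median of 0.41. Their sums ran from 69.6 to 96.5 CPM in BKO and from 61.8 to 79.0 CPM in Cre. The largest part of these sums was Prox1, which barely differed (45.8 ± 3.19 against 43.3 ± 3.95 CPM, SD, n = 6 each, edgeR adjusted p = 0.684). Pdpn had the largest fold change of the 4, at 12.2 ± 5.95 against 6.11 ± 3.07 CPM (SD, n = 6 each). Its groups overlapped (log2 fold change 0.99 ± 0.38, SE, edgeR adjusted p = 0.285). Ccl21a was at 0 reads in every library and Mmrn1 had at most 1 read, while Lyve1, which macrophages can also express, was at 20.1 ± 4.79 against 14.6 ± 1.10 CPM (SD, n = 6 each; edgeR adjusted p = 0.168).

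The neuropilins, which bind both VEGF and class 3 semaphorins, had unlike spreads. Nrp1 (ENSMUSG00000025810.9, chromosome 8, 128358604 to 128503363, plus strand, with Mir1903 inside 1 of its exons) was at 16.6, 21.9 and 26.0 CPM in BKO and at 16.9, 18.1 and 18.5 CPM in Cre. The Cre libraries were tightly grouped, with a coefficient of variation of 3.34% against 16.2% in BKO, where BKO-3 lay below all of them. Its log2 fold change was the smallest of the receptors, 0.27 ± 0.096 (SE; edgeR adjusted p = 0.241). Nrp2 (ENSMUSG00000025969.15, chromosome 1, 62703285 to 62818695, plus strand) was at 27.3, 32.5 and 39.7 CPM in BKO and at 19.0, 23.3 and 33.1 CPM in Cre. The highest Cre value was that of Cre-5, and the other 5 Cre libraries were below every BKO library. The log2 fold change was 0.45 ± 0.12 (SE; edgeR adjusted p = 0.157), and 0.57 without Cre-5, where it was called (edgeR adjusted p = 0.0256). DESeq2 also called Nrp2 (adjusted p = 0.0452), and over all alternatives its adjusted p ran from 0.0256 to 0.376.

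Tek, the receptor of the angiopoietins (ENSMUSG00000006386.15, chromosome 4, 94739289 to 94874976, plus strand), had the largest fold of the receptors. It was at 13.8, 19.2 and 24.1 CPM in BKO and at 9.80, 12.2 and 18.4 CPM in Cre. In 4 BKO libraries it exceeded every Cre library, and Cre-5 and Cre-1 were the 2 controls inside the BKO range. The log2 fold change was 0.55 ± 0.16 (SE; 19.4 ± 3.71 against 13.2 ± 3.24 CPM, SD, n = 6 each; edgeR adjusted p = 0.169). DESeq2 called Tek (adjusted p = 0.0489), as did edgeR without Cre-5 (adjusted p = 0.0389), within a range of 0.0240 to 0.406 over all alternatives.

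Other endothelial transcripts also had higher values in BKO, to about the same degree. The 20 endothelial markers, none of which is among the 10 genes, had 20 of 20 positive fold changes with a median of 0.42, and 0 passed the test. Their summed level ran from 572 to 834 CPM in BKO (median 693) and from 448 to 646 CPM in Cre (median 519), and none was at 0. Plvap, the protein of capillary fenestrae, was at 83.7 ± 14.98 against 62.0 ± 7.34 CPM, the cadherin gene Cdh5 at 122 ± 19.6 against 92.9 ± 13.3 CPM and the TGF-β co-receptor gene Eng at 107 ± 21.7 against 78.5 ± 14.4 CPM (SD, n = 6 each). Cre-5, the control with high Flt1, Nrp2 and Tek, had the highest marker sum of the Cre libraries (646 CPM). BKO-1, with low Kdr and Flt4, had the lowest of the BKO libraries (572 CPM). Other values did not follow the sum. BKO-3, with the lowest Flt1, Tek and Nrp1 of the BKO libraries, had a higher sum (647 CPM) than BKO-1. The highest Kdr and Angpt2 of the Cre libraries were in Cre-1 (553 CPM). The relation between receptors and marker sum was not tested. In bulk RNA, more cells of a type and more RNA per cell cannot be told apart. Pericyte markers, which include the mural cell genes Pdgfrb, Rgs5 and Mcam, had 7 of 9 positive and a median of 0.27. The negative ones were Abcc9 (-0.076) and Kcnj8 (-0.12). Pericyte marker sums were 83.6 to 117 CPM in BKO and 74.8 to 93.0 CPM in Cre.

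Receptor values were therefore also set against vessel markers. Libraries were scaled so that the mean log2 CPM of the 20 endothelial markers was equal in each, and all genes were tested again with edgeR. This scaling moved the median of all genes to -0.41, and 69.1% of all genes were called lower and 0.883% higher. Per endothelial marker none of the 6 receptors was called, with log2 fold changes from -0.16 ± 0.15 (Nrp1) to 0.15 ± 0.15 (Tek; SE) and edgeR adjusted p from 0.310 to 0.769. Flt1 was at 0.11 ± 0.14 and Kdr at -0.064 ± 0.13 on this scale. Angpt2, at -0.069 ± 0.13, and Vegfc, at 0.12 ± 0.28, were not called either. On this scale Kdr, Cdh5 and Eng each had an SE of 0.130, against 0.109, 0.114 and 0.148 on the TMM scale. The SE here was thus mostly a value shared among genes, so these results say little about the spread of each receptor. Vegfa fell per endothelial marker (-0.34 ± 0.13; edgeR adjusted p = 0.0186) and so did Vegfb (-0.60 ± 0.14; edgeR adjusted p = 0.000349), as did most genes. Without BKO-6 the Vegfa value was -0.30 and no longer called (edgeR adjusted p = 0.0621), in a fit that called 60.9% of all genes lower.

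A second scale used β-cell markers, since VEGF-A is a β-cell product. The 11 markers, among them Ins1, Ins2, Mafa and Pdx1, had 10 negative fold changes with a median of -0.20, and 0 passed the test. Scaling to them moved the median of all genes to 0.23, with 1.99% of all genes called higher and 0.0% lower. Per β-cell marker Flt1 (0.77 ± 0.16, SE), Kdr (0.58 ± 0.15), Angpt2 (0.57 ± 0.14) and Flt4 (0.57 ± 0.14) rose, with edgeR adjusted p from 0.0402 to 0.0483. Vegfa was at 0.31 ± 0.11 (edgeR adjusted p = 0.0834) and Vegfb at 0.057 ± 0.12 (edgeR adjusted p = 0.686). These calls turned on single libraries. Without BKO-2, BKO-5, BKO-6, Cre-2, Cre-3, Cre-4 or Cre-6 in turn, 0 of the 10 genes were called. Without BKO-4, 3 were called, and 2.91% of all genes were called higher. Without Cre-5 it was 7 and 5.15%, and without Cre-1 8 and 15.7%. Without BKO-1 or BKO-3 9 were called, and 40.4% and 23.3% of all genes. Without Ins1, Ins2 and Iapp among the markers 9 were called and 16.3% of all genes. Blocking on replicate number gave 7 and 8.11%.

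**Figure D3:**
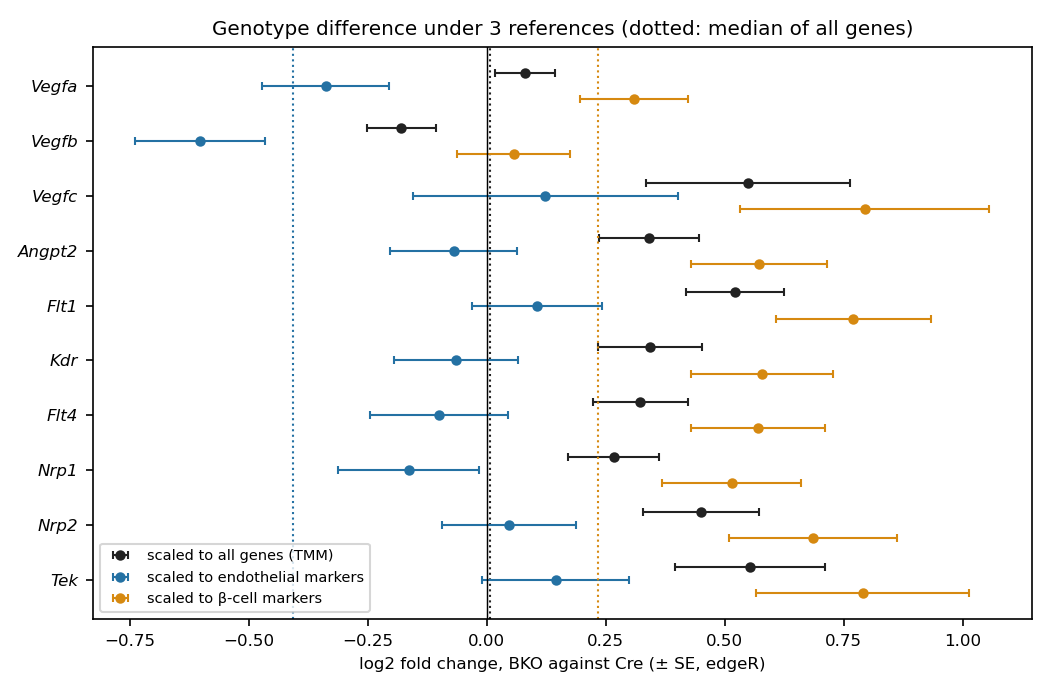
Log2 fold change of the 10 genes, BKO against Cre, with its SE (horizontal axis), scaled to all genes (black), to endothelial markers (blue) or to β-cell markers (orange). Dotted lines give the median of all genes on each scale (0.0078, -0.41 and 0.23). The 6 receptors and Angpt2 lie near 0 only on the endothelial scale, where Vegfa (-0.34) and Vegfb (-0.60) lie below 0.

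Within a library the ratio of ligand to receptor needs no scaling. It is given as a log2 ratio of CPM per kilobase and without a test, because the genes were chosen with earlier results known. Vegfa to Kdr was at 3.00, 3.44 and 4.02 (lowest, median, highest) in BKO and at 3.48, 3.70 and 3.98 in Cre, medians of 10.9 and 13.0 on the linear scale. The BKO-1 library held the highest ratio of all 12 and BKO-6 the lowest, so the groups overlapped widely. Vegfa to Flt1 was at 5.21, 5.32 and 5.71 in BKO and at 5.44, 5.91 and 5.99 in Cre. Here 5 of 6 Cre libraries lay above every BKO library, and Cre-5 lay among the BKO libraries.

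The ratio of Vegfb to Flt1, the gene with the negative fold change over the receptor with the smallest p, had groups that did not overlap. It was at 2.33, 2.73 and 2.93 in BKO and at 3.03, 3.42 and 3.66 in Cre, medians of 6.65 and 10.7 on the linear scale. No BKO library reached the lowest Cre library. Of 13566 genes with reads in all libraries, 15.7% had a ratio to Flt1 that was likewise lower in BKO with no overlap between groups, while 0.00737% were higher with no overlap. Vegfc to Flt4 overlapped (-1.59 in BKO and -1.80 in Cre, medians), and so did Angpt2 to Tek (1.83 and 2.08).

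**Figure D4:**
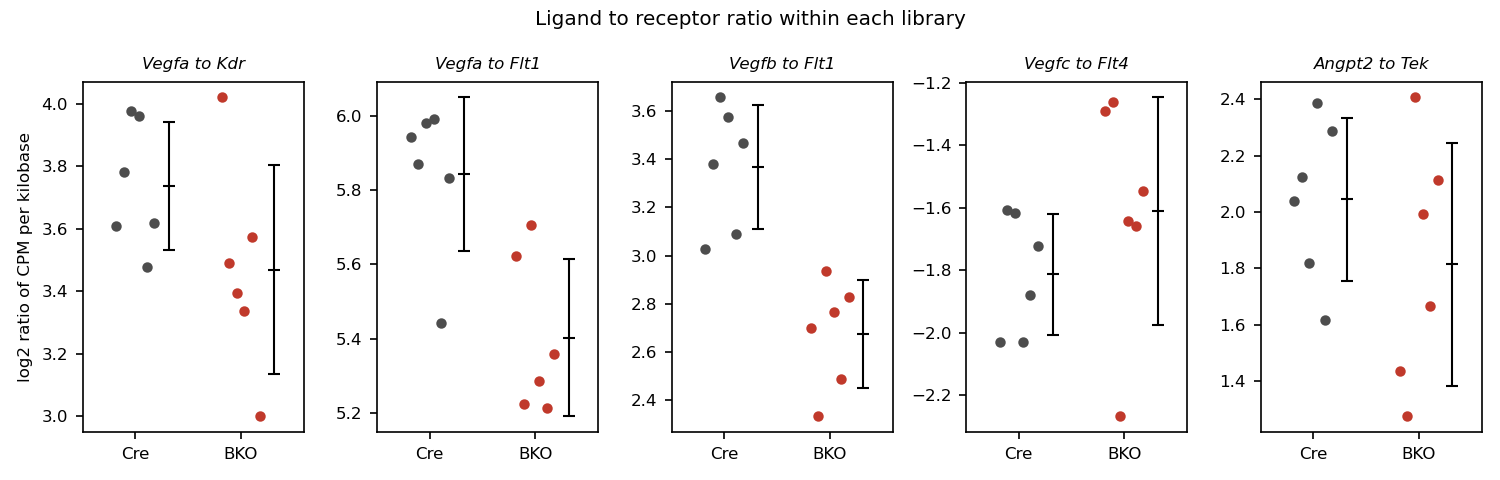
Log2 ratio of ligand to receptor (CPM per kilobase, vertical axes not from 0) in each Cre (grey) and BKO (red) library, with the group mean and SD in black. Only Vegfb to Flt1 has groups that do not overlap, with the highest BKO library at 2.93 and the lowest Cre library at 3.03.

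Within genotypes, 2 pairs of the 10 genes had a Pearson relation that passed the adjustment. Relations were measured on log2 CPM after subtracting the genotype mean, over 12 libraries and 45 pairs of genes, with permutation within genotype and Benjamini-Hochberg adjustment over the pairs. Angpt2 and Kdr had the closest relation, a Pearson r of 0.86 (permutation p = 0.00022, adjusted p = 0.0099) and a Spearman rho of 0.86 (permutation p = 0.00083, adjusted p = 0.0373). Without the 2 libraries farthest from the Angpt2 median, BKO-1 and BKO-6, r was 0.73. With single libraries left out r stayed between 0.78 and 0.92. The adjusted p rose above 0.05 without BKO-1 (permutation, 0.0727) and without Cre-3 (permutation, 0.0594). Flt1 and Tek followed with a Pearson r of 0.82 (permutation p = 0.00195, adjusted p = 0.0439) and a Spearman rho of 0.75 (permutation p = 0.00957, adjusted p = 0.215). That pair had an r of 0.72 without Cre-5 and BKO-5, and its adjusted p was under 0.05 in only 2 of the 12 sets that left out 1 library, those without Cre-2 and Cre-3.

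No other pair passed the adjustment. Kdr and Flt1, the main VEGF-A receptors, had an r of 0.26, and Angpt2 and Tek, ligand and receptor, an r of 0.07. The r of Vegfa with the 6 receptors ran from -0.51 (Flt4) to 0.24 (Flt1), and none of these passed. The difference between these relations was not tested.

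**Figure D5:**
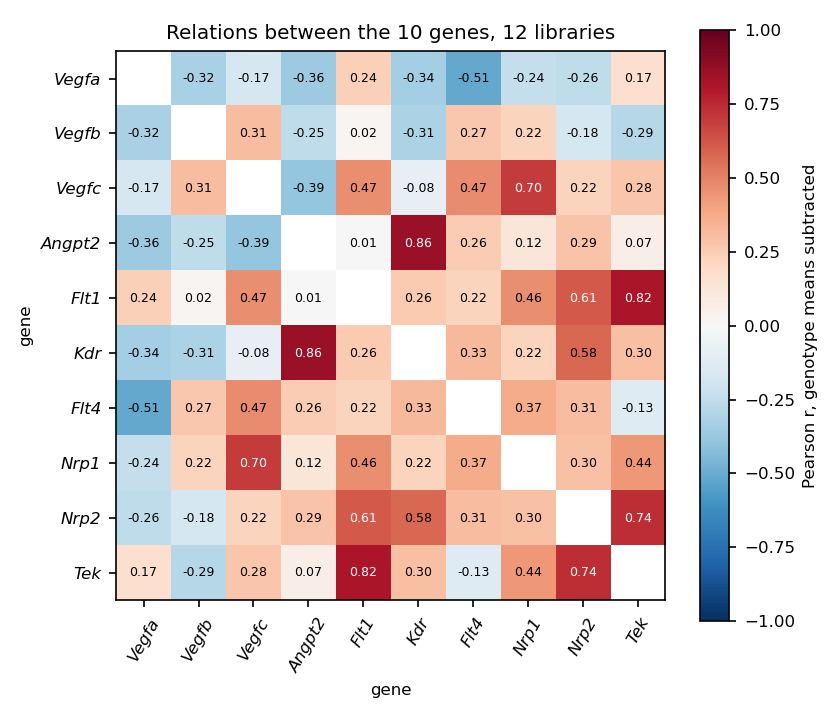
Pearson r between each pair of the 10 genes over 12 libraries, on log2 CPM with genotype means subtracted (colour scale from -1 to 1). Angpt2 with Kdr (0.86) and Flt1 with Tek (0.82) are the closest pairs, and the Vegfa row is mostly negative.

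The genes most like Kdr within genotypes, out of 11998 ranked by the same Pearson r over 12 libraries, were Tspan18 (0.90), Angpt2 (0.86), Cul4a (0.86), Thbs1 (0.86) and Nrarp (0.84). They were picked for that value, so it is a description. Thbs1, the angiogenesis inhibitor thrombospondin 1, was at 351 ± 73.5 against 304 ± 42.0 CPM (SD, n = 6 each, edgeR adjusted p = 0.581). Nrarp, a Notch target gene, was at 5.29 ± 1.03 against 3.91 ± 1.08 CPM (SD, n = 6 each, edgeR adjusted p = 0.354). The log2 fold change was 0.39 ± 0.22 for Tspan18 and -0.030 ± 0.052 for Cul4a (SE, edgeR adjusted p of 0.471 and 0.870). Those most like Vegfa were Snhg12 (0.96), Rab34 (0.92), Rabl2 (0.91), Gipr, the receptor of the incretin GIP (0.90), and Tial1 (0.89). None of the other 9 genes was near Vegfa in that order, the closest being Flt1 at rank 3885.

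Most other genes of the pathway also had positive fold changes. Of 49 further genes, 39 were tested, 34 had a positive and 5 a negative fold change, and the median was 0.26 against 0.0078 over all genes. None passed edgeR's test over all genes, and 19 were higher and 0 lower at an unadjusted p under 0.05, where 8.7% and 4.66% of all genes were. DESeq2 called 3 of them, and 1.5% of all genes.

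Pgf, placental growth factor and a ligand of FLT1, averaged 12.2 ± 1.97 against 9.82 ± 0.847 CPM (BKO against Cre, SD, n = 6 each; log2 fold change 0.31 ± 0.11, edgeR adjusted p = 0.250). The other ligands were too low to test. Figf, the older symbol of Vegfd, had 0 to 13 reads per library, Angpt1, the activating ligand of TEK, also 0 to 13, and Angpt4 0 to 8.

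All 9 tested receptor partners had a positive fold change, with a median of 0.36. Tie1, the orphan partner of TEK, was at 26.5 ± 4.40 against 19.4 ± 2.78 CPM (0.45 ± 0.11, SE; edgeR adjusted p = 0.148). Sema3f, a semaphorin ligand of NRP2, was at 25.4 ± 3.77 against 19.5 ± 2.35 CPM (0.38 ± 0.10, edgeR adjusted p = 0.156). All 6 BKO libraries lay above every Cre library, where 0.508% of all genes had groups that did not overlap. Sema3f was named for its small p, so this separation was in part selected for. Sema3e, a ligand of plexin D1, was at 25.2 ± 3.86 against 19.6 ± 2.48 CPM (0.36 ± 0.10; edgeR adjusted p = 0.168).

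The 15 tested endothelial response genes were all positive, with a median of 0.29. Aplnr, the apelin receptor of sprouting and venous endothelium, had the largest fold of the wider list, at 4.90 ± 2.15 against 1.64 ± 0.776 CPM (1.57 ± 0.34; edgeR adjusted p = 0.121). Per endothelial marker, where 0.883% of all genes were called higher and 69.1% lower, Aplnr rose (1.15 ± 0.25, edgeR adjusted p = 0.000242). It had 8 to 82 reads per library. Tie1 (0.031), Sema3f (-0.042), Sema3e (-0.060) and Pgf (-0.11) were not called on that scale (edgeR adjusted p from 0.546 to 0.855). Of the response genes, named here for their calls, Adamts1 was also called higher (0.29), and Dll4 (-0.33), Notch1 (-0.31) and Rcan1 (-0.39) lower. Of the 8 signal transducers tested, 3 were positive and 5 negative, with a median of -0.0065. Among them Nos3, endothelial nitric oxide synthase, had the largest fold change, with a log2 fold change of 0.49 ± 0.19 (SE; edgeR adjusted p = 0.280), named here after its value was seen. Ligand processing genes and inhibitors had 6 of 6 positive and a median of 0.19.

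Markers of other cells differed in either direction in the same libraries, and their part in the values above was not tested. Other islet endocrine genes had 9 of 9 positive with a median of 0.36, duct markers 4 of 7 with a median of 0.21 and macrophage markers 0 of 8 with a median of -0.41. Acinar markers had 6 of 6 positive with a median of 0.53, and their sum ran from 1061 to 3851 CPM in BKO and from 172 to 4932 CPM in Cre. None of these lists had a gene past the test.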

How the data were processed

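Per the labels' protocols, TRIzol-extracted islet RNA was made into paired-end libraries. The submitters' processing notes name HISAT2 2.0.5, the counter HTSeq and the build mm10. Strand setting and annotation: not given in the sources used here. Each deposited sample file holds raw read counts per gene symbol, followed by 5 summary lines that name no gene and were left out of library sizes and tests (34.7% to 45.8% of counted reads). The series-wide table of scaled values was not used.

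The main test was edgeR 4.0.16 in R 4.3.3: filterByExpr on genotype, TMM scaling, robust quasi-likelihood fit, BKO against Cre, Benjamini-Hochberg adjustment over all 13583 genes. The same fit was run with libraries scaled to the mean log2 CPM (prior count 2) of endothelial or β-cell markers. Permutations within genotype numbered 100000. Gene models and exon lengths come from GENCODE M21 (GRCm38, that is mm10), which gave a model for 137 of 137 list genes present. Every pair of libraries within a group differed beyond sampling noise (chi-square over degrees of freedom 5.08 to 30.1). Alternatives were RLE and upper-quartile scaling, other filters, DESeq2 1.42.0, limma-voom 3.58.1, no robust shrinkage, a replicate block and each library left out.

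The 10 genes and all lists were chosen with earlier results of these data known. Named genes are the 10, Pgf, Figf, Angpt1, Angpt4, Tie1 and the 4 genes of the wider list with the smallest p, the 3 markers of a list with the highest level per kilobase, and the 5 genes most like Kdr and Vegfa (among genes without a predicted-model symbol whose mean log2 CPM was 1 or more); other markers named were chosen after their values were seen.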

Additional observations from a re-analysis of the deposited data

Results flagged for a closer look

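Of 30 groups of 6 libraries examined for a single library far from the rest (10 genes and 5 ligand to receptor ratios in each genotype), 3 held one; chance flags about 1 in 20 groups. Vegfb in Cre-1 was at 30.5 CPM, below the other Cre libraries by 78.0% of the group's range. Nrp2 in Cre-5 was at 33.1 CPM, above the others by 63.2% of the range. The log2 ratio of Vegfa to Flt1 in Cre-5 was 5.44, below the others by 71.1% of the range.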

How the results depend on the processing

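The direction of each of the 10 genes on the TMM scale was the same under all 20 alternatives. The number of the 10 genes past the test was 0, and 3 with DESeq2 (Flt1, Nrp2, Tek), 4 with the replicate block (Flt1, Tek, Flt4 and Nrp2, with edgeR adjusted p of 0.00183, 0.0240, 0.0427 and 0.0427) and 0 to 3 with single libraries left out. Over all genes the count was 0, and 214 with DESeq2, 364 with the replicate block and 0 to 262 with single libraries left out; the largest came without BKO-4. Of the wider list 0 passed, and 3 with DESeq2, 8 with the replicate block and 0 to 2 with single libraries left out. Per endothelial marker the count was 2 (Vegfa and Vegfb, both lower, as were 69.1% of all genes), and 1 to 2 with single libraries left out. Per β-cell marker it was 4, and 7 with the replicate block. It was 9 without Ins1, Ins2 and Iapp, and 0 to 9 with single libraries left out. Without the filter on low counts Nrp1 and Nrp2 were called too on that scale (edgeR adjusted p of 0.0383 and 0.0465). The share of all genes called in that unfiltered fit was not counted, so these calls have no background to be read against. Vegfb turned to -0.021 on the β-cell scale without BKO-5, in a range up to 0.11. The labels do not say that replicate numbers pair samples: 4 of 6 same-numbered pairs deviated together (r over 0.1), and 7 of 12 samples correlated best with their own number. Of the 45 relations 2 passed, and 0 to 2 with single libraries left out. The cause of these changes was not tested. The ratio differences kept their sign without each library, at -0.38 to -0.17 for Vegfa to Kdr, -0.52 to -0.40 for Vegfa to Flt1 and -0.76 to -0.62 for Vegfb to Flt1. Alternatives for the wider list and for the relations were added after the data were seen. Vegfc rests on 14 to 38 reads per library, which limits its precision.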
